A study of Homo sapiens
Mus musculus with 3 samples.

Results

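The 10 genes described here are a fixed list of human DNA replication genes, taken by name and Ensembl identifier and not by any measured value. They are 10 of the 32738 human genes, and of the 60736 human and mouse genes, in the read tables. The minichromosome maintenance genes MCM2 (ENSG00000073111), MCM3 (ENSG00000112118), MCM4 (ENSG00000104738), MCM5 (ENSG00000100297), MCM6 (ENSG00000076003) and MCM7 (ENSG00000166508) encode the subunits of the ring-shaped helicase that opens the DNA at replication forks. PCNA (ENSG00000132646) encodes the sliding clamp that holds the polymerases on DNA. TYMS (ENSG00000176890) encodes thymidylate synthase, which makes the thymidine nucleotide, and RRM1 (ENSG00000167325) and RRM2 (ENSG00000171848) encode the large and the small subunit of ribonucleotide reductase, which makes deoxyribonucleotides.

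In dividing cells the helicase is loaded on DNA before S phase as a complex of all its subunits, and the clamp and the nucleotide enzymes serve the forks during S phase. Transcription of these genes rises as cells enter the cell cycle, largely through E2F factors, and resting lymphocytes keep them low. Lymphocyte lines in culture divide but not in step, so a suspension holds cells of all phases.

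The cells were an equal mixture of 4 lymphocyte lines, namely the human T-cell leukemia lines Jurkat and TALL-104, the mouse lymphoma line EL4 and the mouse hybridoma IVA12, with no drug or genetic treatment named in the labels. Single cells were profiled by 3' RNA sequencing in the nanowells of ICELL8 cx chips with the vendor's 3'DE protocol (2 libraries, called library 1 and library 2) or with 3'DE-UMI (1 library, called the UMI library). The second is a version in which the cDNA is cleaned and leftover barcoding primers are digested before amplification, and its unique molecular identifiers (UMIs) count molecules. Per the study's sample table, library 2 and the UMI library came from one cell mixture and library 1 from another. Wells are cells of one library and not replicates. Nothing in the labels says that the 2 3'DE libraries came from separate cultures, so p-values measure only the spread between these libraries. The tests pool that spread over genes, so a p-value does not rest on the spread of its own gene alone.

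The libraries held between 35581264 and 109702878 gene-assigned reads. After filters there were 533, 484 and 557 human wells in library 1, library 2 and the UMI library, and 922, 773 and 700 mouse wells, which served as background because they should lack human transcripts. The human wells formed 2 clusters. Human cluster 1 had 406, 448 and 528 wells and human cluster 2 had 127, 36 and 29, in the same order of libraries. The files pair no identifier with a gene name, so the marker lists for the lines could not be looked up and the clusters are not named after a line. The median depth was 26536, 38469 and 17797 reads per well in cluster 1 and 4507, 9509 and 5653 in cluster 2. In library 2 the deepest 10% of cluster 1 wells held 55.2% of the reads and the median well held 4.28% mouse reads, against 0.257% in library 1. Between 469 and 539 well barcodes were shared by any pair of libraries, and 189 by all 3, since the chips use one set of barcodes.

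Human cluster 1 carried reads of all 10 genes in all 3 libraries. Levels are given in CPM, the reads of a gene summed over the wells of a cluster and scaled to 1000000 human reads. Together the 10 genes held 1806 CPM in library 1, 1575 CPM in library 2 and 2438 CPM in the UMI library. The 6 helicase subunits summed to 951, 686 and 1058 CPM, and the 3 nucleotide genes to 584, 532 and 531 CPM. The sum of the nucleotide genes was thus close in all 3 libraries, although its members were not, as shown next.

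Among the helicase genes, MCM7 was at 227 CPM in library 1, 147 CPM in library 2 and 422 CPM in the UMI library. MCM3 was at 241, 134 and 247 CPM, and MCM4 at 203, 195 and 234 CPM. The 3'DE-UMI library was thus the highest of the 3 for these subunits, far from the others for MCM7 and close to the nearest 3'DE library for MCM3 and MCM4.

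The other 3 subunits had the opposite order. MCM5 was at 83.3, 60.7 and 29.1 CPM, MCM6 at 151, 119 and 95.8 CPM, and MCM2 at 46.8, 30.9 and 30.0 CPM. Here the UMI library was the lowest of the 3. MCM2 depended on the wells taken. By the mean over wells it was at 48.6, 50.9 and 26.7 CPM, and with at most 1% mouse reads at 35.5, 18.9 and 28.5 CPM, where library 2 was the lowest. That filter kept 235, 64 and 216 cluster 1 wells.

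The clamp gene PCNA was at 271 CPM in library 1, 356 CPM in library 2 and 848 CPM in the UMI library, so both 3'DE libraries were far below the third. RRM1 was at 200, 185 and 380 CPM and was also highest in the UMI library, with the 2 3'DE libraries close to each other. TYMS was at 114, 165 and 63.7 CPM and RRM2, the other reductase subunit, at 270, 183 and 87.1 CPM, both lowest in the UMI library. In all, 5 genes lay above both 3'DE libraries in the UMI library and 5 lay below both. By the mean over wells 4 lay above, 5 below and MCM3 between them, at 232 CPM against 249.6 and 159 CPM.

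**Figure D1:**
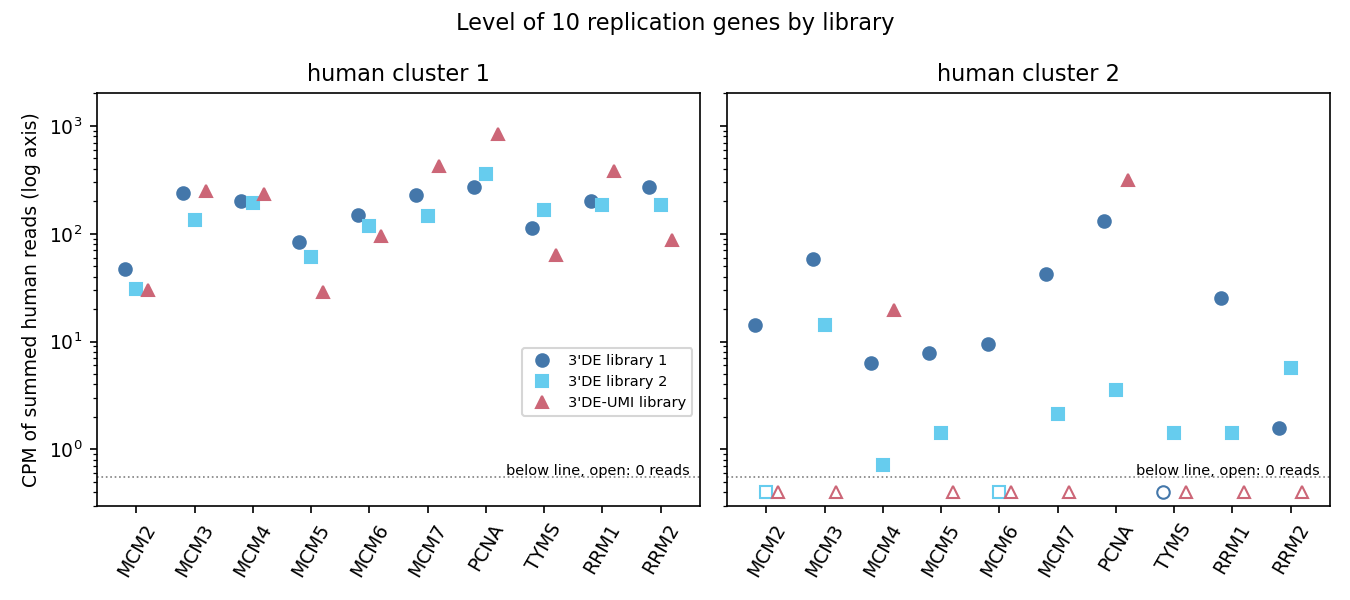
Level of each gene in CPM of human reads (log axis) in human cluster 1 (left) and human cluster 2 (right), with 1 symbol per library; open symbols under the dotted line stand for 0 reads and have no level. In cluster 1 all 10 genes lie between 29.1 and 848 CPM, while in cluster 2 most lie far lower and 8 genes have no read in the UMI library.

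Human cluster 2 held few reads of the 10 genes. They summed to 188 reads in library 1, 43 in library 2 and 68 in the UMI library, which is 295, 30.8 and 335 CPM. On these sums cluster 1 was 6.12-fold, 51.1-fold and 7.27-fold higher in the 3 libraries. By the mean over wells of each well's own CPM, in which deep wells do not weigh more, the ratios were 6.05, 22.2 and 6.31. PCNA held 83 of the 188 reads and 64 of the 68 reads, but only 5 of the 43. Fewer cells in cycle and less of these RNAs per cell cannot be told apart in such sums.

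Each gene had a lower level in cluster 2 in all 3 libraries, by amounts that differed between libraries. In the UMI library 8 genes had 0 reads in the 29 cluster 2 wells. MCM2 and MCM5 were seen there in 6.82% and 7.39% of cluster 1 wells. Their cluster 2 interval reached 11.9%, so no decrease is shown for these genes in that library. Of the nucleotide genes, TYMS had 0 reads in cluster 2 of library 1, where a floor of 3 reads puts the ratio at 24.1. It had 2 reads in library 2, a ratio of 115 with an exact Poisson 95% interval from 31.8 to 950. In the UMI library it had 0 reads, and the same floor puts the ratio at 4.31. RRM2 had 1 read in cluster 2 of library 1 (ratio 172, interval 30.9 to 6804), 8 reads in library 2 (ratio 31.9) and 0 in the UMI library (5.89 at the floor). RRM1 was 7.96-fold higher in cluster 1 of library 1 on 16 reads, and had 2 reads and 0 reads in cluster 2 of the other libraries. Most of these ratios rest on a few reads, and the order of the genes by ratio was not the same in each library. Intervals and floors cover counting error only, since reads copied from one molecule are not independent. In cluster 1 of the UMI library TYMS and RRM2 had 10.9 and 16.3 reads per UMI, more than the floor of 3 reads. The floor ratios of that library are therefore no lower bounds.

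PCNA, the clamp gene, was at 130 CPM in cluster 2 of library 1, 3.58 CPM in library 2 and 316 CPM in the UMI library, so that cluster 1 was 2.08-fold, 99.5-fold and 2.69-fold higher. Of the helicase genes, MCM2 was 3.31-fold and MCM4 32.3-fold higher in cluster 1 of library 1, on 9 and 4 reads in cluster 2. MCM3 was at 58.1 CPM in library 1 and 14.3 CPM in library 2, 4.14-fold and 9.37-fold below cluster 1, with no read in the UMI library. The ratio of PCNA in library 2 stood apart from the other libraries, and it rests on 5 reads in 2 of 36 wells and was 27.8-fold by the mean over wells. In the UMI library the 64 PCNA reads of cluster 2 came from 2 of 29 wells.

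These reads were set against the human reads found in mouse wells, after every well had been thinned at random to 5000 reads. Only 50, 26 and 15 cluster 2 wells were deep enough. In library 1 a PCNA read was present in 8 of 50 cluster 2 wells (16.0%, exact binomial 95% interval 7.17 to 29.1%) and in 1 of 886 mouse wells (0.113%, 0.00286 to 0.627%). MCM3 was present in 4 of 50 wells (8.0%, 2.22 to 19.2%) and in 7 of 886 mouse wells (0.790%, 0.318 to 1.62%). At this depth the intervals of cluster 2 and mouse wells did not overlap for these 2 genes. The share of all human genes set apart in this way was not computed, so nothing particular to these 2 genes is shown. With all reads kept, they stayed apart for PCNA (cluster 2 from 8.62%, mouse wells up to 1.70%). For MCM3 they then overlapped (cluster 2 from 2.24%, mouse wells up to 2.53%). Without thinning the mouse wells of library 1 were deeper, with a median of 23713.5 reads against 4507 in cluster 2.

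MCM7 (3 of 50 wells, from 1.25%) and RRM1 (2 of 50 wells, from 0.488%) had intervals that began above the mouse shares of 0.564% and 0.451% but overlapped the intervals of the mouse wells. MCM2 was seen in 1 of 50 wells and in 0 of 886 mouse wells, which allows up to 0.339%, so no difference was detectable. This limit for a count of 0 is one-sided, 3 divided by the number of wells, and lies below the exact binomial limit. In the UMI library PCNA was seen in 2 of 15 wells, with an interval from 1.66%, against 0.734% (0.239 to 1.71%) of mouse wells. Its reads numbered 2.21 per well in cluster 2 and 0.0829 in the deeper mouse wells, and those of cluster 2 came from 2 wells. In library 2 no gene had an interval that began above the share of its mouse wells. With all reads kept, the library 1 intervals of MCM7 (from 0.865%) and RRM1 (from 1.75%) began below the mouse shares of 1.74% and 2.71%. The interval of PCNA in the UMI library (from 0.846%) began below the mouse share of 3.43%. The library 1 interval of MCM2 then began at 0.191%, against 0 of 922 mouse wells, which allows up to 0.325% by the same one-sided limit.

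The clusters were compared across libraries in edgeR on 6 sums, with the library as a term. Each gene was tested on wells that had been clustered on a separate set of genes. All 10 genes had a positive log2 fold change of cluster 1 over cluster 2, and 6 passed the test at an adjusted p of 0.05, all higher in cluster 1. Of the 10766 genes tested, 3.67% passed and 2.39% passed as higher in cluster 1. The median log2 fold change was 5.26 over the 10 genes and 1.82 over all genes tested. The sums of cluster 2 were far smaller than those of cluster 1, so a gene could enter the test through cluster 1 alone. With equal numbers of wells drawn from both clusters, these medians were 4.83 and 0.79. Of the 7315 genes then tested, 133 passed as higher in cluster 1 and 175 as lower, with 4 of the 10 genes among the higher. Fitted fold changes of genes with empty sums depend on the prior count and are no bounds.

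In that fit MCM4 had a log2 fold change of 6.92 ± 1.63 (SE, edgeR adjusted p = 0.00144), RRM1 of 5.89 ± 1.46 (adjusted p = 0.00332), MCM7 of 5.35 ± 1.40 (adjusted p = 0.00656) and RRM2 of 6.35 ± 1.71 (adjusted p = 0.00919). PCNA, at 3.06 ± 0.92 (adjusted p = 0.0284), and MCM6, at 6.67 ± 2.06 (adjusted p = 0.0363), were nearer to the threshold. The error in this fit was pooled over genes, and PCNA passed with ratios of 2.08, 99.5 and 2.69 in the 3 libraries. The 4 genes that did not pass were MCM3 (3.75 ± 1.37, adjusted p = 0.114), TYMS (5.17 ± 2.31, adjusted p = 0.233), MCM5 (4.76 ± 2.2, adjusted p = 0.246) and MCM2 (4.83 ± 2.54, adjusted p = 0.288). The fitted value of MCM3 had a smaller SE than those of 5 of the 6 genes that passed but was also smaller than theirs. TYMS, MCM5 and MCM2 had SEs larger than that of each gene that passed. Each SE was derived from the fold change and the F statistic, so it restates the test and does not explain it. Without library 1, which holds 127 of the cluster 2 wells, none of the 10 passed in edgeR (5 at an unadjusted p under 0.05, all 10 still positive), and 30 genes passed in all. With only wells of at most 1% mouse reads, 1 of the 10 passed, MCM4. That filter kept 64 of 448 cluster 1 wells and 11 of 36 cluster 2 wells of library 2. An effect of fewer wells and one of fewer mouse reads cannot be told apart there.

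The difference between the protocols was examined in cluster 1, by setting the UMI library against the 2 3'DE libraries in edgeR on 3 sums. This leaves 1 residual degree of freedom, with the lone library assumed to vary like the others. The p-values therefore lean mostly on the spread pooled over all genes. Of the 10 genes, 3 passed, all higher in the UMI library: the clamp gene PCNA, the helicase gene MCM7 and the reductase gene RRM1. Of the 13698 genes tested, 12.6% passed and 5.36% passed as higher. The median log2 fold change was 0.09 over the 10 genes and -0.11 over all genes tested.

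PCNA differed by a log2 fold change of 1.58 ± 0.31 (SE, edgeR adjusted p = 0.00639), MCM7 by 1.33 ± 0.34 (adjusted p = 0.0227) and RRM1 by 1.13 ± 0.32 (adjusted p = 0.0366). RRM2 had -1.22 ± 0.39 (adjusted p = 0.0571), MCM5 -1.15 ± 0.46 (adjusted p = 0.122) and TYMS -1.03 ± 0.43 (adjusted p = 0.132), with unadjusted p-values of 0.00783, 0.0273 and 0.0311. These negative values were of similar size to the positive ones but did not pass after adjustment. MCM3 (0.56 ± 0.38), MCM4 (0.38 ± 0.34), MCM6 (-0.34 ± 0.38) and MCM2 (-0.21 ± 0.50) lay within 1.5 standard errors of 0. With library totals in place of TMM factors the median of all genes moved from -0.11 to -0.26, and RRM2 passed (adjusted p = 0.0256) while RRM1 did not (adjusted p = 0.0547).

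Within the single cell mixture that gave both protocols, that is without library 1, the values could be fitted with no test. PCNA was higher by 1.35 on the log2 scale, MCM7 by 1.63 and RRM1 by 1.14, and TYMS was at -1.31, RRM2 at -0.97 and MCM5 at -0.96. Each of these 6 genes kept its direction there and also without library 2. MCM2 turned from -0.21 to 0.06 without library 1.

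**Figure D2:**
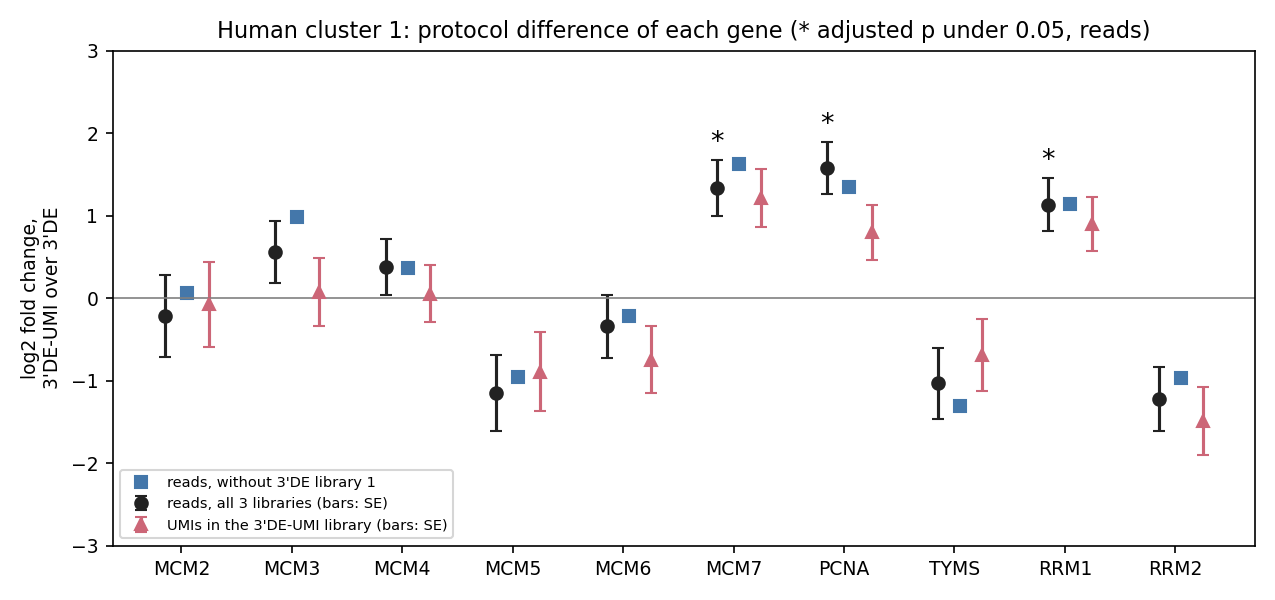
Log2 fold change of each gene in human cluster 1, 3'DE-UMI over 3'DE, from edgeR on summed reads (black, with SE), from the 2 libraries of one cell mixture (blue squares, no error) and with UMIs in place of reads in the UMI library (red triangles, with SE). PCNA, MCM7 and RRM1 lie above 0 and TYMS, RRM2 and MCM5 below 0 in all 3 versions, and the PCNA value falls from 1.58 to 0.80 with UMIs.

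UMIs gave a second scale for the UMI library. The 10 genes had 2079 UMIs in the 528 cluster 1 wells, from 37 for MCM2 to 552 for PCNA. There were 17.8 reads per UMI over the 10 genes, against 13.9 over all human genes. The ratio ran from 10.9 reads per UMI for TYMS and 11.3 for MCM5 up to 19.1 for MCM3 and 23.3 for PCNA. PCNA thus had more reads per UMI than any of the other 9 genes, and its level was 848 CPM on reads but 504 CPM on UMIs. Reads and UMIs were aligned and counted by different software, so the ratio is not strictly one of copies per molecule. TYMS had a UMI in 70 wells but both a read and a UMI in only 63.

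On the UMI scale MCM7 (396 CPM of UMIs), PCNA (504 CPM) and RRM1 (330.4 CPM) still lay above both 3'DE libraries. MCM4 (189 CPM), MCM5 (35.6 CPM), MCM6 (73.9 CPM), TYMS (81.2 CPM) and RRM2 (73.9 CPM) lay below both, and MCM3 (179.8 CPM) and MCM2 (33.8 CPM) between them. When these UMI counts replaced the reads, none of the 10 genes passed in edgeR, with 4 at an unadjusted p under 0.05 and 738 of 12396 genes passing in all. MCM7 was then at 1.21 (adjusted p = 0.0855), RRM1 at 0.90 (adjusted p = 0.160) and PCNA at 0.80 (adjusted p = 0.229). Reads in the 3'DE libraries were compared with UMIs in that version, so the unit differed between the groups.

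The make-up of the helicase counts differed between the protocols. MCM7 held 23.9% of the MCM2 to MCM7 reads in library 1 and 21.4% in library 2, but 39.9% in the UMI library and 43.6% of its 995 helicase UMIs. MCM5 held 8.75% and 8.84% in the 3'DE libraries and 2.75% in the UMI library (3.92% of UMIs). MCM6 held 15.8% and 17.4%, against 9.06%. For MCM5 the 2 3'DE libraries were nearly equal and the third was apart, and MCM4, at 21.3%, 28.4% and 22.1%, and MCM3, at 25.3%, 19.6% and 23.4%, had the UMI library between them. These shares are within-library values of genes of different length and are compared between libraries only, with no test, since 2 libraries against 1 cannot give an exact permutation p under 0.333.

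**Figure D3:**
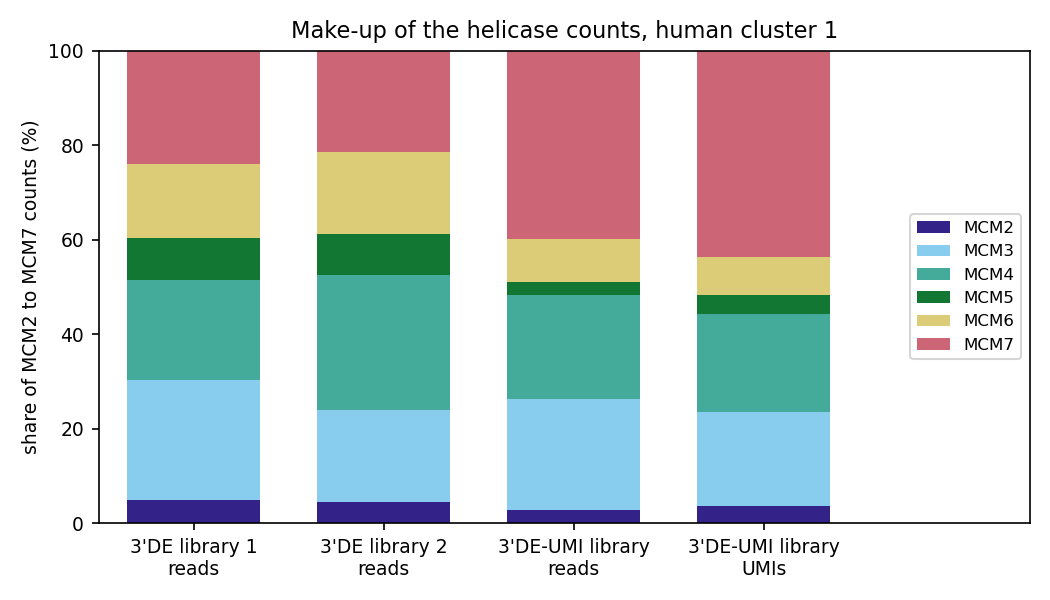
Share of the summed MCM2 to MCM7 counts of human cluster 1 held by each subunit, for reads of the 3 libraries and UMIs of the UMI library; each bar sums to 100%. The MCM7 part is 23.9% and 21.4% in the 3'DE libraries and 39.9% of reads and 43.6% of UMIs in the UMI library.

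The share of cluster 1 wells with a read of each gene was compared at the same 5000 reads per well. This left out 15, 27 and 40 shallower wells of cluster 1. A PCNA read was then present in 54.0% of cluster 1 wells of library 1 (exact binomial 95% interval 48.9 to 58.9%), 50.8% of library 2 (45.9 to 55.7%) and 47.1% of the UMI library (42.6 to 51.7%). The intervals overlap, whereas the level of PCNA was highest in the UMI library, so no order is read from these shares. A well with a PCNA read had on average 2.58 reads of it in library 1, 2.9 in library 2 and 8.21 in the UMI library at this depth.

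MCM7 was seen in 49.9%, 36.3% and 40.2% of wells and RRM1 in 50.9%, 39.4% and 36.1%. For both genes library 1 had the highest share and the UMI library the highest level, so no order is read from these shares either. RRM2 was seen in 47.3% and 34.4% of wells with 3'DE and in 49 of 488 wells with 3'DE-UMI, and TYMS in 30.7%, 45.4% and 9.22%. MCM6, at 39.1%, 32.5% and 10.5%, and MCM5, at 24.3%, 17.1% and 4.51%, were likewise lowest with 3'DE-UMI. For these 4 genes the share in the UMI library was below the intervals of both 3'DE libraries, in the direction of their levels. Fewer human genes in all were seen in that library. At this depth 3849, 3358 and 1794 human genes had a read in at least 10% of cluster 1 wells, in the same order of libraries. The low shares are therefore not particular to these 4 genes. MCM2 was seen in 15.1%, 13.8% and 4.30% of wells, MCM3 in 50.9%, 34.4% and 25.2% and MCM4 in 40.4%, 34.9% and 21.7%, for MCM3 and MCM4 against the order of their levels.

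**Figure D4:**
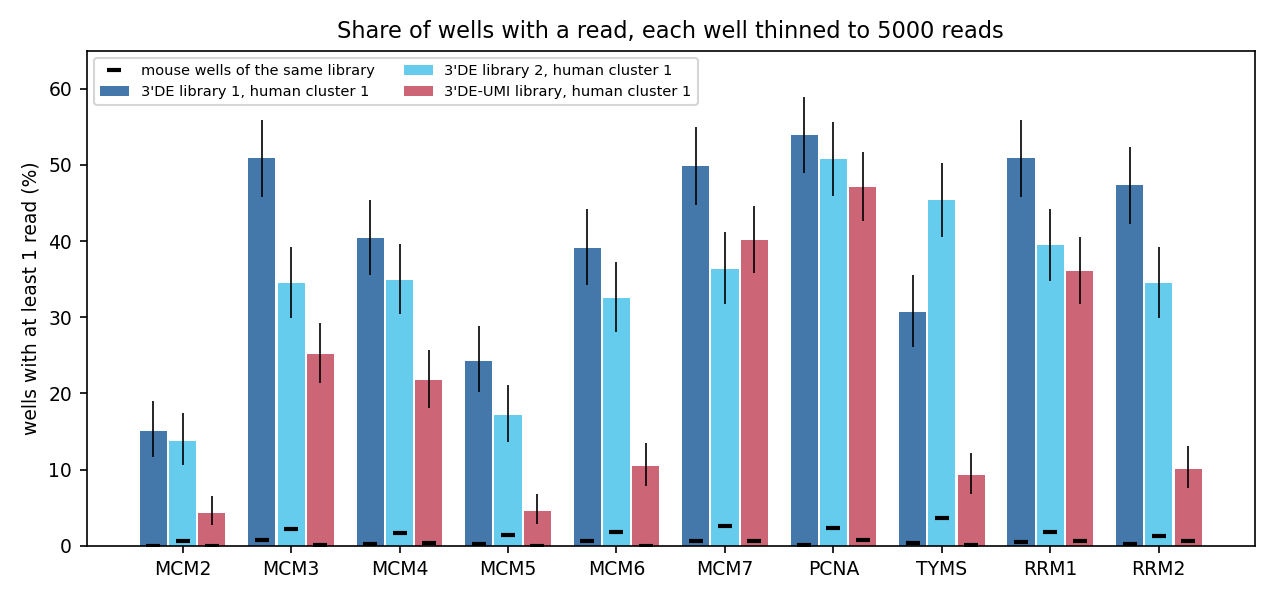
Percent of human cluster 1 wells with at least 1 read of each gene after thinning each well to 5000 reads, with exact binomial 95% intervals, by library; black dashes give the mouse wells of the same library. MCM5, MCM6, TYMS and RRM2 are seen in at most 10.5% of wells of the UMI library, and the mouse wells reach 3.64% at most.

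The mouse wells, at the same 5000 reads, had a read of a given gene in at most 0.790% of 886 wells in library 1, 3.64% of 715 wells in library 2 and 0.734% of 681 wells in the UMI library. Every gene in cluster 1 was above the mouse wells of its library by its interval. The share of all human genes for which this holds was not computed. The highest of these background shares was that of TYMS in library 2. Before thinning, 24.6% of the mouse wells of that library had a TYMS read, against 73.2% of cluster 1 wells, at median depths of 31942 and 38469 reads.

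In cluster 2 at the same depth, TYMS and RRM2 were seen in 0 of 50 and 0 of 26 wells of the 3'DE libraries. The one-sided limit given above for a count of 0 allows shares of up to 6.0% and 11.5%. TYMS and RRM2 were also seen in 0 of 15 wells of the UMI library, where the limit lies above the shares found in cluster 1. A difference in the share of wells was thus not detectable there for these 2 genes. The same holds for MCM2, MCM5 and MCM6, seen in 4.30%, 4.51% and 10.5% of cluster 1 wells of that library.

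The genes were also counted together in each well. A cluster 1 well thinned to 5000 reads had reads of 4.03 ± 1.94 of the 10 genes (SD over 391 wells) in library 1, 3.39 ± 1.86 (421 wells) in library 2 and 2.09 ± 1.59 (488 wells) in the UMI library. The human genes seen in at least 10% of these wells numbered 3849, 3358 and 1794, so human genes in general had the same order. Equal reads are also not equal molecules, since the UMI library had 13.9 reads per UMI over all human genes. A cluster 2 well had 0.38, 0.154 and 0.133, and a mouse well 0.0350, 0.193 and 0.0308. The cluster 2 value of library 2 was thus under that of its mouse wells. At least 1 of the 10 genes was seen in 381 of 391, 406 of 421 and 410 of 488 cluster 1 wells, and 5 or more in 39.9%, 26.1% and 9.84%. With all reads, 25 of 406 wells, 34 of 448 wells and 0 of 528 wells had reads of all 10 genes.

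Across cluster 1 wells the genes were only weakly correlated. Spearman's rho between 2 of the 10 genes, at 5000 reads per well, had a median over the 45 pairs of 0.087 in 391 wells of library 1, 0.074 in 421 wells of library 2 and 0.055 in 488 wells of the UMI library. The median over all pairs of genes seen in at least 10% of the wells was 0.003, 0.009 and 0.039. In the UMI library MCM2, MCM5 and TYMS were seen in fewer than 10% of the wells, so the 2 medians of that library rest on unlike sets. The highest pair was PCNA with RRM2 in library 1 (0.260), MCM3 with MCM5 in library 2 (0.178) and MCM4 with PCNA in the UMI library (0.245). These wells share a library, its depth and its chemistry, and such weak values in sparse counts are given as a description.

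Set against the sum of the other 9 genes, PCNA had the highest rho in library 1 (0.301) and the UMI library (0.241), and MCM5 had it in library 2 (0.243). TYMS was the lowest in library 1 (0.019) and the UMI library (0.018), and MCM2 in library 2 (0.086). Among 1697 other human genes seen in at least 10% of wells of every library, the 2 whose counts followed the sum of the 10 most closely were ENSG00000197061 (mean rho over the libraries 0.236) and ENSG00000168496 (0.200). The files pair these identifiers with no name.

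Some of the 10 genes share sequence with other genes, and the deposited counts do not show how such reads were assigned. In the RefSeq annotation of GRCh38.p14, which is not the build of the files and was used for names only, TYMS overlaps ENOSF1 and TYMSOS, MCM7 overlaps AP4M1 and 3 microRNA genes, and PCNA overlaps PCNA-AS1. The same table lists 4 pseudogenes named after PCNA, 3 named after RRM2 and 2 named after TYMS. Whether the counting used strand is not given in the sources used here, so the values of these 4 genes are uncertain to that extent.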

How the data were processed

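The authors deposited whole-number counts of reads per gene and well for 3 ICELL8 libraries, made with STAR 2.7.0b in the mappa software, and UMI counts for the 3'DE-UMI library from the Drop-seq tools with STAR 2.4.2a, both on a joint hg19 and mm10 reference of Cell Ranger 1.2.0, per the labels and the methods. Whether the deposited counts come from downsampled reads is not given in the sources used here. Wells with at least 1000 reads and 200 genes were kept and called mixed at 10% reads of the other species. No doublet caller was run within a species, so mixed wells were the only doublets removed. Human wells were clustered in scanpy 1.11.5 (1000 variable genes, 20 components, 15 neighbours, Leiden resolution 0.1). Levels used clusters made without the 10 genes, and tests used clusters from the other set of genes (even or odd identifier numbers). The 2 assignments were the same in 1567 of 1574 wells.

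Summed counts were tested in edgeR 4.0.16 (filterByExpr, TMM, two-sided quasi-likelihood F-test, Benjamini-Hochberg over all genes tested, threshold 0.05), after a check on simulated data. The SE of an edgeR value is the absolute log2 fold change divided by the square root of its F statistic. DESeq2 1.42.0 was an alternative. The other gene lists and the cell line markers that were planned could not be matched to identifiers and were not tested. All 10 genes are named in each comparison, and of the 5 genes most alike 2 are printed. The 10 genes, the lists and the tests were chosen with earlier results of these data known.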

Additional observations from a re-analysis of the deposited data

How the results depend on the processing

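Over 14 alternatives to the comparison of clusters, each of the 10 genes kept a positive value, and MCM4 passed in 13, RRM1 in 11, MCM7 in 10, RRM2 in 9, MCM6 in 6, TYMS in 4, PCNA in 3, MCM3 and MCM5 in 2 each and MCM2 in 1. Against 6 genes passing and 395 of all genes, 3 and 263 passed with at least 5000 reads per well, 1 and 190 with at most 1% mouse reads, and 1 and 125 with no replicate block, that is with the pairing of clusters by library left out. DESeq2 raised the count of all genes to 1405 and UMI counts raised it to 916, with 9 of the 10 genes in each. Leaving out 1 library gave 0 to 5 of the 10 genes and 30 to 458 of all genes, the lowest without 3'DE library 1, and 224 without 3'DE library 2.

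In the comparison of protocols the count of 3 became 1 with at most 1% mouse reads (PCNA), 5 with wells thinned to 2000 reads (with RRM2 and TYMS) and 0 with UMI counts. All genes passing fell from 1720 to 705 with at most 1% mouse reads and to 738 with UMI counts. With wells thinned to 2000 reads, 2015 of the 7479 genes tested passed, against 1720 of 13698. A larger part of all genes thus passed there, and the rise is not particular to the 10 genes. Over 10 alternatives with a test, PCNA passed in 9, MCM7 in 8, RRM1 and RRM2 in 6 each and TYMS in 1. MCM2, which never passed, turned to 0.06 without 3'DE library 1 (-0.48 without 3'DE library 2), 0.16 with mixed wells at 5% and 0.18 with at most 1% mouse reads. The comparison without the 3'DE-UMI library could not be made. No paired analysis was possible because the replicate numbers of the protocols were given in accession order and name 1 library of 3'DE-UMI.

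The mean number of genes per well became 6.28, 5.64 and 2.48 with no thinning, 2.34, 2.03 and 1.56 at 2000 reads and 2.14, 1.88 and 1.63 with at least 2 reads. The median rho became 0.047, 0.054 and 0.045 at 2000 reads, and 0.158, 0.196 and 0.101 as Pearson's r on unthinned log2(CPM + 1). The cause of these changes was not tested. Without thinning more wells and reads enter, and at 2000 reads more wells but fewer reads per well. With at least 2 reads the wells are the same and the count is stricter. The level of the 10 genes together moved by less than the spread of the 3'DE libraries under both alternatives. Depth limits cluster 2 most, where 29 wells of the 3'DE-UMI library held 202780 human reads.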

Other observations

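The human reads in mouse wells held the 10 genes in other proportions than cluster 1. In 3'DE library 2, TYMS was at 337 CPM of the human reads in mouse wells and at 165 CPM in cluster 1, while PCNA was at 177 and 356. In 3'DE library 1, TYMS was at 267 and 114, and PCNA at 105 and 271. MCM3, MCM4 and MCM6 differed between the mouse wells and cluster 1 by less than 1.1-fold in both 3'DE libraries. In the 3'DE-UMI library 1 mouse well held 91.2% of the 34 TYMS reads, so its value of 276 against 63.7 rests on that well. These values rest on 11 to 297 reads per gene and have no test. Of the wells with a UMI of PCNA in the 3'DE-UMI library, 51.6% had only 1, and the well with most had 12. For MCM5 the share with 1 UMI was 94.4%, and for RRM2 87.1%.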
